A study of Mus musculus with 7 samples.

Results

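The BCL2 family decides whether the outer mitochondrial membrane is opened during intrinsic apoptosis. Effectors (BAX, BAK) form the pores, BH3-only proteins (PUMA, NOXA, BIM, BID) trigger them, and antiapoptotic proteins (BCL2, BCL-XL, MCL1, A1) bind and hold both in check. Lymphocytes and myeloid cells depend on different antiapoptotic members, and Bax, Bbc3 (PUMA) and Pmaip1 (NOXA) are known targets of p53. The 10 members taken by symbol were Bax, Bak1, Bbc3, Pmaip1, Bcl2l11 (BIM), Bid, Bcl2, Bcl2l1 (BCL-XL), Mcl1 and Bcl2a1b (A1), out of 33696 genes in the count matrices, and UMIs for all 10 were present.

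The data came from 7 malignant peripheral nerve sheath tumor (MPNST) allografts. Each was grown from implanted cells of JW23.3, a single mouse MPNST line that the study describes as lacking Nf1 and Trp53, under the flank skin of wild-type female C57/B6 mice aged 5 to 6 weeks. The irradiated group (4 tumors) received 5 daily fractions of 2 Gy with shielding outside the tumor, and the control group (3 tumors) received none. Both groups therefore share the line and its deletions. Mice were randomized on day 7, tumors were harvested on day 21 and dissociated with papain, and 1 droplet library of 3′ ends was made per tumor, so that an early response to the fractions lies outside the sampled time.

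Cells were assigned by marker genes to 4 gates. The tumor gate (14886 cells) required Schwann-lineage or mesenchymal tumor markers and no UMI of Xist or Ptprc, because the hosts were female and the study takes the tumor cells as male. The macrophage gate held 12062 cells, the T/NK gate 1266 cells and the endothelial gate 483 cells, while 5599 of 34296 retained cells entered no gate. The number of cells within 1.5 times of a gate's threshold was 1267 for tumor, 990 for macrophage, 147 for T/NK and 208 for endothelial cells. The 12 macrophage markers summed to between 17143 and 19909 UMIs per 1000000 UMIs (CPM) in the macrophage gate and to between 34.7 and 72.3 CPM in the tumor gate. The 15 T/NK markers summed to between 6973 and 8353 CPM in their own gate, and the 12 endothelial markers to between 6702 and 7856 CPM in theirs. Total UMIs per library ran from 53496570 to 153044123, and 190 of 39347 distinct barcodes occurred in more than 1 library.

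Trp53 and Nf1, the genes knocked out in the line, gave UMIs in the tumor gate, with means of 168 ± 16.2 CPM and 334 ± 53.1 CPM (SD, n = 7). Tags at the 3′ end do not show whether an upstream part of a gene is deleted, so these values do not check the genotype. All levels below are UMIs summed per tumor and gate, given per 1000000 UMIs of that sum (CPM). They are shares of a cell class's RNA and are compared between gates, not between genes.

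The members with the largest fitted differences between 2 gates were Bcl2a1b and Bcl2, both antiapoptotic, followed by the BH3-only gene Pmaip1. Bcl2 and Pmaip1 were highest in T/NK cells in 7 of 7 tumors, and Mcl1 and Bcl2l1 had their highest means in macrophages. The T/NK level of Bcl2 was not shared by regulatory T cells, at 26.4 to 46.7 CPM. Bcl2a1b was found in macrophages and T/NK cells but was near background in tumor and endothelial cells. All 10 members had a lower share of UMIs in tumor cells than in macrophages. The plot of members by gate shows these levels in every tumor.

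**Figure D1:**
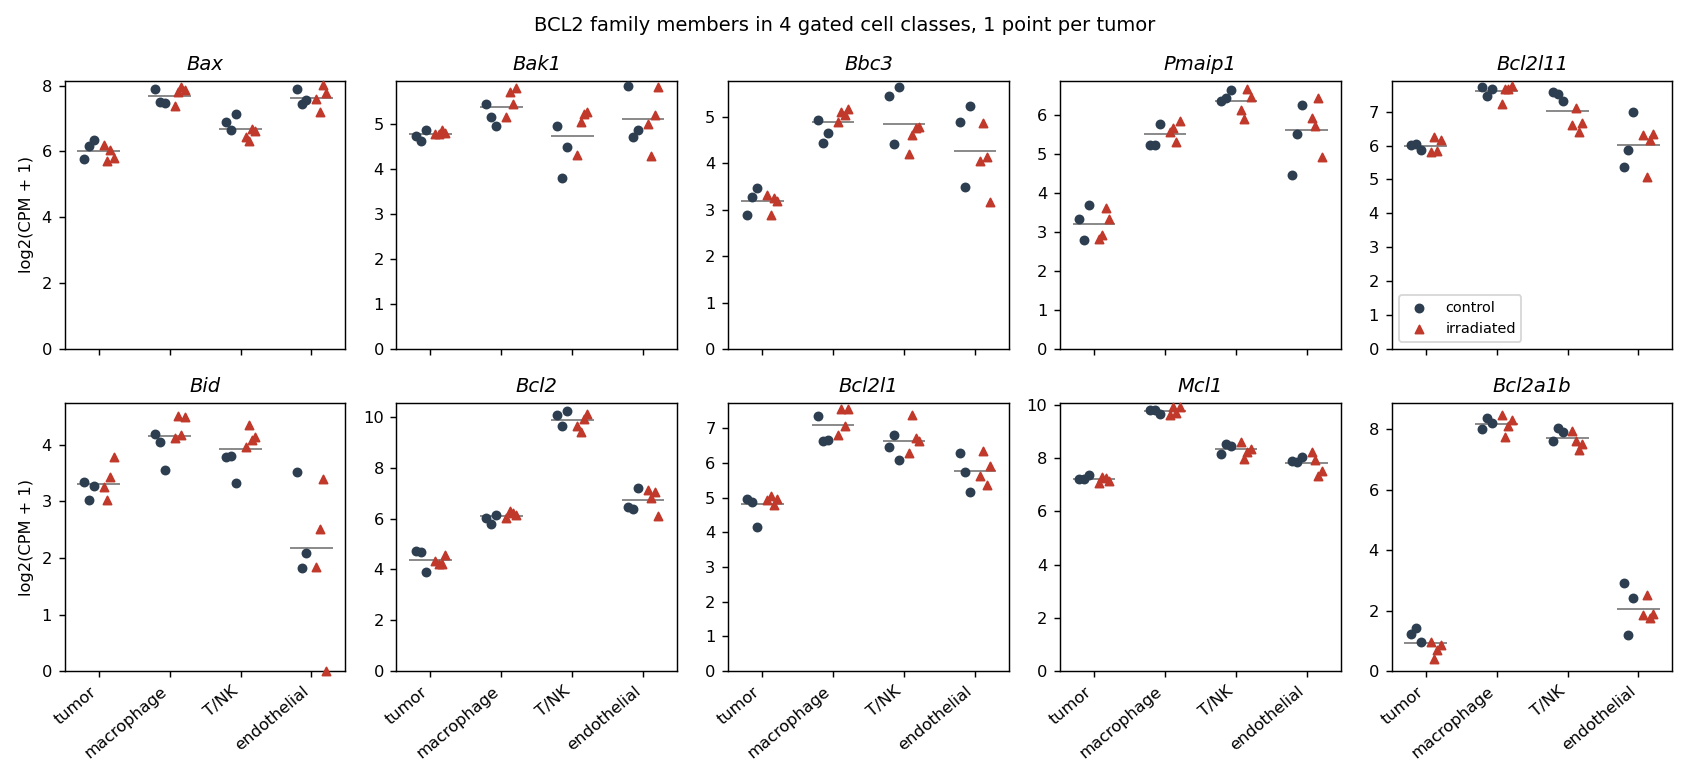
Level of each member as log2(CPM + 1) in the tumor, macrophage, T/NK and endothelial gates; each point is 1 of 7 tumors (circles, control; triangles, irradiated) and the bar is the mean of all 7. Bcl2 stands highest in T/NK cells in 7 of 7 tumors and Mcl1 highest in macrophages in 7 of 7. Bcl2a1b has means of 0.954 CPM in tumor cells and 3.49 CPM in endothelial cells, far below its mean of 290 CPM in macrophages.

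Bcl2, the founding antiapoptotic member, was between 686 and 1191 CPM in T/NK cells, with a median of 976 CPM. It was between 54.3 and 78.3 CPM in macrophages (median 69.5 CPM), between 66.9 and 148 CPM in endothelial cells (median 113 CPM) and between 13.8 and 25.8 CPM in tumor cells (median 19.4 CPM). No tumor's T/NK value overlapped any other gate. On the fitted log2 scale, Bcl2 was higher in T/NK cells than in tumor cells by 5.48 (SE 0.18, adjusted p = 2.71e-20, edgeR quasi-likelihood test) and higher than in macrophages by 3.30 (SE 0.17, adjusted p = 4.66e-16). Endothelial cells and macrophages, next in the order, were not separated (log2 difference 0.17, interval -0.18 to 0.51, adjusted p = 0.43), and this comparison depended on scaling: without composition scaling the difference was 0.70 (adjusted p = 0.00121).

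Mcl1, a short-lived antiapoptotic protein needed by many myeloid cells, was between 786 and 958 CPM in macrophages, with a median of 885 CPM. T/NK cells held between 249 and 382 CPM, endothelial cells between 157 and 301 CPM, and tumor cells between 132 and 162 CPM. Macrophage values lay above those of every other gate in all 7 tumors, whereas T/NK and endothelial values overlapped. The fitted log2 difference from tumor cells was 3.00 in macrophages (SE 0.12, adjusted p = 4.65e-20), 1.05 in T/NK cells (SE 0.12, adjusted p = 2.36e-09) and 0.53 in endothelial cells (SE 0.12, adjusted p = 0.000324).

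Bcl2l1, whose longer product BCL-XL guards mitochondria in many solid tissues, was between 97.2 and 186 CPM in macrophages and between 67.0 and 166 CPM in T/NK cells. These ranges overlapped, although T/NK cells were lower in the fit (log2 difference -0.97, SE 0.12, adjusted p = 4.96e-08). Levels were lower in endothelial cells (34.6 to 79.8 CPM) and tumor cells (16.9 to 32.1 CPM), and tumor cells were the lowest gate in 7 of 7 tumors. Macrophages exceeded tumor cells by 2.75 on the log2 scale (SE 0.12, adjusted p = 2.61e-19). The 3′ tags do not separate the long BCL-XL form from the short proapoptotic form of this gene.

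Bcl2a1b, one of several mouse copies of the A1 gene, an NF-kappaB-responsive antiapoptotic gene of leukocytes, was between 212 and 349 CPM in macrophages and between 158 and 263 CPM in T/NK cells. In tumor cells it was between 0.335 and 1.66 CPM, on 427 UMIs in all. The 5 macrophage genes kept out of the gating (Tyrobp, Fcer1g, Lyz2, Ctss and Laptm5) reached 0.220% to 0.365% of their macrophage level in the tumor gate, and Bcl2a1b reached 0.329%. The tumor-gate value lay within the range of these genes and is read as background. In endothelial cells Bcl2a1b reached 1.20% of the macrophage level on 15 UMIs, against 0.346% to 0.846% for the 5 genes, and with so few UMIs this was not separated from background.

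Among the effectors, Bax, which moves from the cytosol to the mitochondrion, was between 165 and 246 CPM in macrophages and between 145 and 259 CPM in endothelial cells, and these ranges overlapped. It was between 79.3 and 139 CPM in T/NK cells and between 51.2 and 80.0 CPM in tumor cells. Tumor cells were the lowest gate in 7 of 7 tumors, and macrophages exceeded them by 2.14 on the log2 scale (SE 0.13, adjusted p = 2.08e-15). Bak1, which resides at the mitochondrial membrane, had tumor-cell values of 23.6 to 28.1 CPM, which overlapped those of T/NK cells (12.95 to 37.8 CPM) and endothelial cells (18.8 to 57.1 CPM). Its macrophage values of 30.1 to 55.3 CPM lay above those of tumor cells, by 1.05 on the log2 scale (SE 0.13, adjusted p = 1.58e-08).

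The stretch before the start of Bax is shown because it holds the only match to a p53 site among the promoter windows of 9 members. The tumor line is described as lacking p53. RefSeq promoter windows (250 bases before to 50 after the start, GRCm38.p6) were used for 9 of 10 members at 14 starts. Pmaip1, also a known p53 target, was left out of this set, and sites outside the windows were not searched. A p53 match was defined as a pair of 10-base half-sites by the p53 consensus, each with at least 9 positions matching and at most 13 bases apart, a palindromic motif read on both strands. Such a pair occurred in 6.72% of 32851 promoters. In Bax, at chr7:45466899-45467148 on the minus strand, the pair matched at 19 of 20 positions. The capitals mark it in the 250 bases before the start.
Bax: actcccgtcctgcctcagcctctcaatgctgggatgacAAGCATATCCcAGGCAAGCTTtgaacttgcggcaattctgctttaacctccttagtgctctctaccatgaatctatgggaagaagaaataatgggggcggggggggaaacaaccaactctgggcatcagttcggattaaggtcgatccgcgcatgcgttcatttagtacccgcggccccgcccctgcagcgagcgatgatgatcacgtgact
The match describes these letters and says nothing on binding in these cells. A match to the kappaB consensus occurred in a single window of Bbc3 and a single window of Bcl2l1, and the other windows of these genes held none. It occurred in 4.51% of all promoter windows and in no window of Bcl2a1b.

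Among the BH3-only genes, Bcl2l11, whose product BIM links loss of survival signals and negative selection to apoptosis, was between 149 and 217 CPM in macrophages and between 83.7 and 191 CPM in T/NK cells. It was between 32.9 and 126 CPM in endothelial cells and between 55.6 and 74.6 CPM in tumor cells, and these last ranges overlapped (log2 difference 0.09, interval -0.32 to 0.50, adjusted p = 0.727). Bbc3 was between 20.9 and 34.9 CPM in macrophages, between 17.4 and 48.9 CPM in T/NK cells, between 8.03 and 36.8 CPM in endothelial cells and between 6.36 and 10.1 CPM in tumor cells. Pmaip1, whose product NOXA binds MCL1, had its highest level in T/NK cells in 7 of 7 tumors (58.5 to 101 CPM), followed by overlapping endothelial (20.8 to 85.7 CPM) and macrophage (36.3 to 56.2 CPM) values, and was between 5.97 and 11.997 CPM in tumor cells. Its excess in T/NK cells over macrophages was 0.36 on the fitted log2 scale (adjusted p = 0.0756) and 0.86 without composition scaling (adjusted p = 8.67e-05). Bid, which is cleaved by caspase-8 and ties death receptors to mitochondria, was at 0 to 10.4 CPM in endothelial cells, on 20 UMIs. It was between 10.7 and 21.7 CPM in macrophages, between 9.05 and 19.5 CPM in T/NK cells and between 7.10 and 12.7 CPM in tumor cells.

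In counts of calls, all 10 members were higher in macrophages than in tumor cells at an adjusted p under 0.05, where 38.9% of all 16195 genes tested were called higher. The median log2 difference of the 10 was 2.23, beside -0.07 over all genes. Without composition scaling the median of all genes moved to -0.51, and the 10 members were still called higher, with Bak1 at 0.61 and Mcl1 at 2.56. T/NK cells exceeded tumor cells in 9 of 10 members (29.7% of all genes were called higher), the exception being Bak1 (log2 difference -0.03, interval -0.39 to 0.32, and 0.026 without composition scaling; 43% of genes lower). Endothelial cells exceeded tumor cells in 7 of 10 members (26.1% of genes higher), including Bcl2a1b at background, and were lower in Bid (log2 difference -0.97, SE 0.32, adjusted p = 0.0109; 33% of genes lower). The 10 members' differences from tumor cells are plotted for each host gate.

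**Figure D2:**
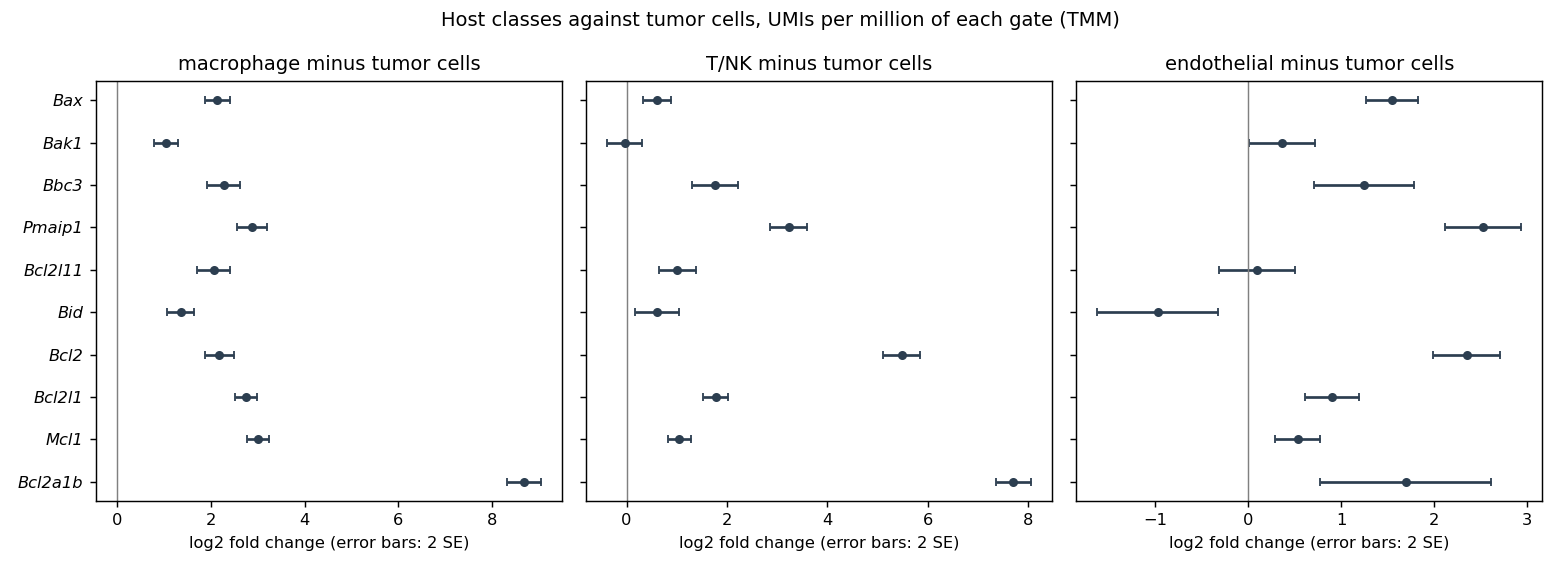
Fitted log2 fold change of each member in macrophage, T/NK and endothelial cells against tumor cells, with error bars of 2 SE, from 1 model of 28 sums with tumor as a block. All macrophage values lie above 0, Bcl2a1b stands apart at 8.68 and 7.70 in macrophage and T/NK cells, and Bcl2 reaches 5.48 in T/NK cells.

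Among host classes, T/NK cells were lower than macrophages in 8 of 10 members (37.5% of genes lower) and higher in Bcl2 alone (23.8% of genes higher). The largest of the 8 were those of Mcl1 (log2 difference -1.95, SE 0.12, adjusted p = 4.36e-15) and Bax (-1.54, SE 0.14, adjusted p = 6.45e-11). Bbc3 was marginal (log2 difference -0.52, adjusted p = 0.0402) and was called in 2 of 14 other settings. Its mean CPM was higher in T/NK cells than in macrophages, although 2 of 7 tumors had that order. With the DESeq2 Wald test 6 members were lower and 2 higher, since Bbc3 (-0.23, adjusted p = 0.401) and Bid (-0.45, adjusted p = 0.084) lost their calls and Pmaip1 (0.66, adjusted p = 0.00163) gained one. Pmaip1 was called higher in 9 of 14 other settings and Bid lower in 11 of 14. Endothelial cells were lower than macrophages in 8 of 10 members (34.1% of genes lower) and higher in 0 (26.4% of genes higher; edgeR, with 0 at an unadjusted p under 0.05, and 1, Bcl2, with DESeq2). Without composition scaling Bax (-0.06, adjusted p = 0.728), Bak1 (-0.15, adjusted p = 0.444) and Bbc3 (-0.50, adjusted p = 0.0771) were no longer called lower in endothelial cells. T/NK cells exceeded endothelial cells in 7 of 10 members (24.9% of genes higher) and were lower in Bax (log2 difference -0.94, SE 0.15, adjusted p = 3.27e-06; 30.9% of genes lower). The balance of calls over all genes moved with scaling: without composition scaling the share of calls that were higher went from 48.3% to 34.9% for macrophages against tumor cells, from 38.8% to 59.3% for T/NK cells against macrophages and from 43.6% to 67.2% for endothelial cells against macrophages (50.9% and 54.5% for the last pair with DESeq2 size factors). These 6 comparisons share sums, and the gates of a tumor share a library.

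Shares of RNA and UMIs per cell gave different orders for several members. Tumor cells held a median over tumors of 30450 UMIs per cell, against 10926 in macrophages, 4953 in T/NK cells and 10653 in endothelial cells. Bax was at 1.83 ± 0.340 UMIs per tumor cell and 2.03 ± 0.997 per macrophage (SD, n = 7), higher in macrophages in 4 of 7 tumors. Bcl2l11 was at 1.86 UMIs per cell in both. Bak1 was at 0.784 ± 0.199 UMIs per tumor cell and 0.409 ± 0.215 per macrophage, with tumor cells higher in 7 of 7 tumors, which is the opposite order from its share of RNA. Bid was at 0.268 UMIs per tumor cell and 0.168 per macrophage, and 1 of 7 tumors had the higher value in macrophages.

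Members that stood above tumor cells on both scales were fewer. Mcl1 was at 8.21 ± 3.47 UMIs per macrophage and 4.33 ± 1.08 per tumor cell, Pmaip1 at 0.420 and 0.255, and Bcl2a1b at 2.59 and 0.0263, each higher in macrophages in 7 of 7 tumors. Bcl2 was at 4.44 ± 1.92 UMIs per T/NK cell and 0.591 ± 0.185 per tumor cell, higher in T/NK cells in 7 of 7 tumors although these cells held the fewest UMIs. Of the other 9 members, Pmaip1 (0.379 against 0.255 UMIs per cell) and Bcl2a1b (0.933 against 0.0263) were also higher per T/NK cell in 7 of 7 tumors. Bax, Bak1, Bcl2l11, Bid, Bcl2l1 and Mcl1 were higher per T/NK cell than per tumor cell in 0 of 7 tumors, and Bbc3 in 1 of 7. Per endothelial cell, Bak1, Bcl2l11, Bid, Bcl2l1 and Mcl1 were higher in 0 of 7 tumors, and the other members in 3 to 6 of 7. RNA content per cell and capture cannot be told apart here.

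**Figure D3:**
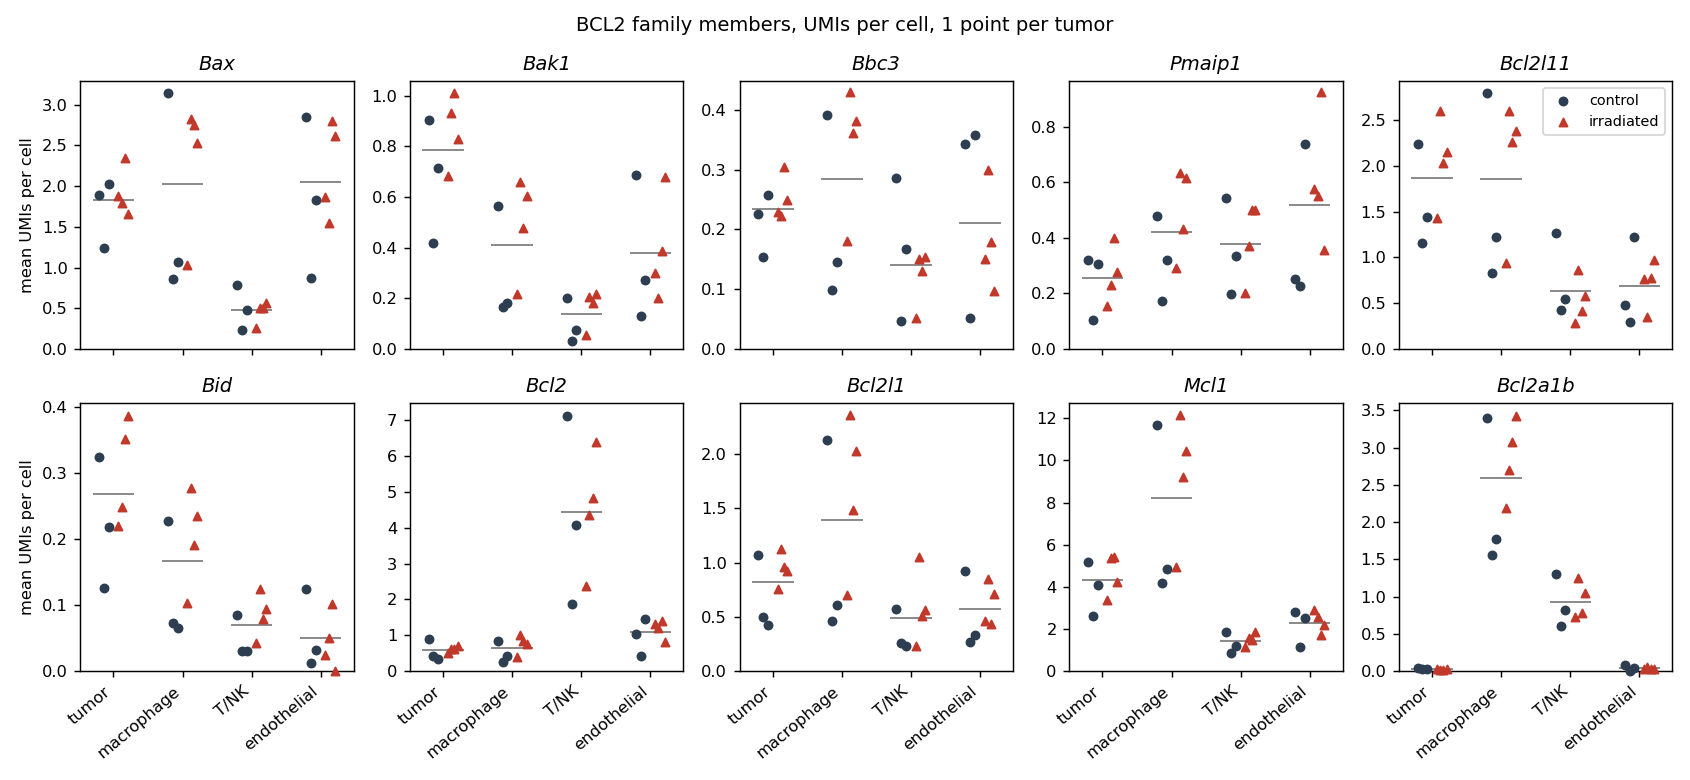
Mean UMIs per cell of each member in the 4 gates, 1 point per tumor (circles, control; triangles, irradiated), with the mean of 7 tumors as a bar and axes starting at 0. Bak1 is highest in tumor cells on this scale, Bcl2 in T/NK cells, and Mcl1 and Bcl2a1b in macrophages.

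The mouse A1 locus holds near-identical copies, and their shares differed between macrophages and T/NK cells. In macrophages Bcl2a1b made up a median of 73.1% of the UMIs of Bcl2a1a, Bcl2a1b and Bcl2a1d (range over tumors 66.3% to 84.5%), Bcl2a1a 13.5% (9.95% to 17.8%) and Bcl2a1d 10.7% (5.54% to 16.1%). In T/NK cells Bcl2a1b made up 75.7% (68.1% to 80.5%), Bcl2a1d 23.4% (17.7% to 30.9%) and Bcl2a1a 0.901% (0 to 1.83%). The ranges of Bcl2a1a and Bcl2a1d did not overlap between the gates, while those of Bcl2a1b did. Bcl2a1a was at 54.2 ± 13.1 CPM in macrophages and 2.58 ± 1.79 CPM in T/NK cells (SD, n = 7, 14 UMIs in all), a log2 difference of -5.00 (SE 0.27, adjusted p = 1.91e-16), whereas Bcl2a1d was at 40.0 ± 11.0 and 63.9 ± 15.1 CPM (log2 difference 0.17, adjusted p = 0.403). Bcl2a1c was at or below 1.45 CPM in every tumor and gate.

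The 250 bases before the starts of the expressed copies are shown because the copies differ in expression while the aligned parts are nearly the same. They lie on chromosome 9 (RefSeq, GRCm38.p6): Bcl2a1b at chr9:89199023-89199272 (plus strand), Bcl2a1a at chr9:88956670-88956919 (plus) and Bcl2a1d at chr9:88731851-88732100 (minus). Capitals mark bases that differ from Bcl2a1b within the aligned stretch.
Bcl2a1b: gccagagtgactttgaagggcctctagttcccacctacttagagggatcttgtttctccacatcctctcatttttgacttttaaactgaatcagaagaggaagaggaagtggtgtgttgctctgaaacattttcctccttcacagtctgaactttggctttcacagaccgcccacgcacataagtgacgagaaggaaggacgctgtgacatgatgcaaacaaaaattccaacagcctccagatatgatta
Bcl2a1a: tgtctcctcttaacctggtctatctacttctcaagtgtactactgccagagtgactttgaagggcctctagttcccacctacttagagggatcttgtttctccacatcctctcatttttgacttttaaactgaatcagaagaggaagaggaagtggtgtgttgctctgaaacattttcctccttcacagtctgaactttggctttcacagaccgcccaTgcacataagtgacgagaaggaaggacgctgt
Bcl2a1d: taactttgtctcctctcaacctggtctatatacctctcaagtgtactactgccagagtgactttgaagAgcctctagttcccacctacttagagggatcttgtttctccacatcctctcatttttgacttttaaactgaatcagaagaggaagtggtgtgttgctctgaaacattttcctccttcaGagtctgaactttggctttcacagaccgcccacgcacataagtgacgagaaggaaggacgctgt
Bcl2a1a differed from Bcl2a1b at 1 of 206 aligned bases (99.5% identity), and Bcl2a1d at 2 of 200 (99.0% identity) with a gap of 6 bases. The stretches are offset relative to the starts. The aligned part runs up to the starts of Bcl2a1a and Bcl2a1d, whereas in Bcl2a1b unaligned bases lie between it and the start. Of 90-base windows in the last 400 bases of the transcripts (GENCODE M21), 27.0% in Bcl2a1a, 34.1% in Bcl2a1b and 60.8% in Bcl2a1d were found whole in another copy. Reads within those windows cannot be assigned to 1 copy, so the split between copies, and the level of Bcl2a1b itself, is uncertain.

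Within T/NK cells, 3 of the 7 members tested differed between regulatory and CD8 T cells, namely Bcl2, Bcl2l11 and Bcl2l1. The subgates held 287 cells with Cd8a or Cd8b1 and 178 with Foxp3, and 3 tumors (irradiated 3, irradiated 4 and control 2) had at least 20 cells in both. Over the 5 tumors with enough cells in each, Bcl2 was at 1171, 1730, 1722, 1398 and 1275 CPM in CD8 cells (irradiated 1, 3 and 4, control 2 and 3) and at 40.2, 43.3, 46.7, 46.1 and 26.4 CPM in regulatory cells (irradiated 2, 3 and 4, control 1 and 2). The ranges were far apart. In the fit of the 3 shared tumors the log2 difference was -5.41 (SE 0.30, adjusted p = 4.44e-18). Bcl2l11 was also lower in regulatory cells, at 18.7 to 41.0 CPM against 90.1 to 289 CPM, a log2 difference of -2.41 (SE 0.45, adjusted p = 7.74e-05) that rests on 7, 4 and 2 UMIs in the regulatory cells of irradiated 3, irradiated 4 and control 2.

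Bcl2l1 went the other way. It was higher in regulatory cells by 1.48 on the log2 scale (SE 0.35, adjusted p = 0.00173), with 51.2 to 317 CPM against 34.7 to 75.5 CPM, and the regulatory cells of control 1, which is not in the fit, gave the low value of 51.2 CPM. These 3 calls were made among 7 members tested, 1 higher (8.96% of 4343 genes) and 2 lower (8.7% of genes). Mcl1 (log2 difference -0.25, interval -0.78 to 0.27), Bcl2a1b (-0.11, interval -0.70 to 0.47), Bax and Pmaip1 did not pass. Bak1, Bbc3 and Bid were below the filter. The median over tumors of the mean depth was 5980 UMIs per CD8 cell and 5789 per regulatory cell.

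**Figure D4:**
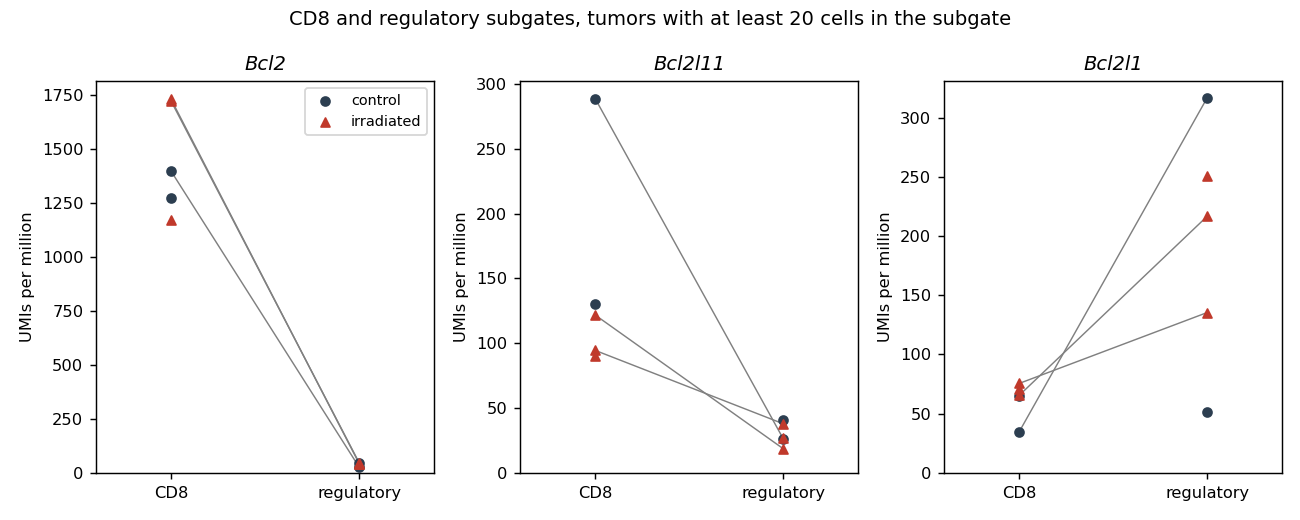
Level in CPM of Bcl2, Bcl2l11 and Bcl2l1 in the CD8 and regulatory subgates of tumors with at least 20 cells in the subgate (circles, control; triangles, irradiated); lines join the 3 tumors with both. Bcl2 and Bcl2l11 are lower and Bcl2l1 is higher in regulatory cells along every line.

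Within macrophages, a small monocyte subgate (428 cells with Ly6c2, Ccr2 and Plac8 and little C1q) was set against a mature subgate (6333 cells high in C1qa, C1qb and C1qc) in 6 tumors, leaving out irradiated 1 with 13 monocyte cells. These are ranges of marker expression rather than separate types. Bcl2l11 was between 373 and 695 CPM in monocyte cells and between 138 and 194 CPM in mature cells, without overlap, a log2 difference of 1.35 (SE 0.12, adjusted p = 7.81e-29). Mcl1 was between 1217 and 1434 CPM against 794 to 903 CPM, also without overlap (log2 difference 0.63, SE 0.10, adjusted p = 6.68e-09). Pmaip1 (log2 difference 0.81, adjusted p = 6.48e-05) and Bak1 (0.74, adjusted p = 0.000264) were higher too, while Bcl2a1b (-0.78, SE 0.13, adjusted p = 3.83e-08) and Bax (-0.47, SE 0.13, adjusted p = 0.0019) were lower. In all, 4 members were higher (15.3% of 11407 genes) and 2 were lower (19.1% of genes). Bcl2a1a (log2 difference 0.14, adjusted p = 0.577) and Bcl2a1d (-0.02, adjusted p = 0.941) did not pass.

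The comparison of irradiated with control tumors asked whether the family differed in any cell class after radiation. No member and no other gene passed an adjusted p of 0.05 in any gate (0% called, edgeR quasi-likelihood test; 17343, 12987, 7517 and 8523 genes tested in tumor, macrophage, T/NK and endothelial cells). At an unadjusted p under 0.05 there were 221, 677, 378 and 262 genes in these gates, and DESeq2 called 0, 4, 0 and 0 genes, with no member among them. The difference between groups within each gate is plotted for all members tested.

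**Figure D5:**
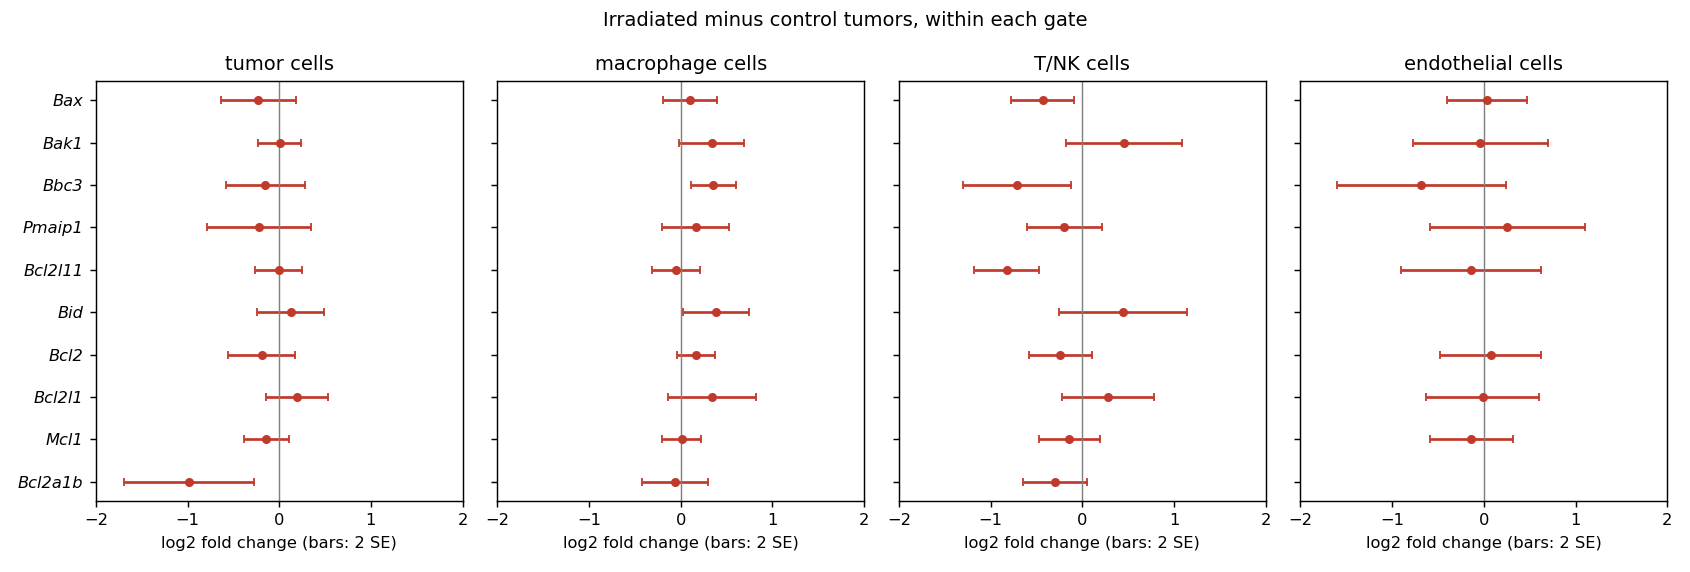
Fitted log2 fold change of each member between 4 irradiated and 3 control tumors within each gate, with error bars of 2 SE; Bid and Bcl2a1b were below the filter in endothelial cells. The bars of Bcl2l11, Bbc3 and Bax in T/NK cells and of Bcl2a1b in tumor cells lie below 0 and those of Bbc3 and Bid in macrophages above it; no value passed an adjusted p of 0.05.

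In tumor cells, every member but Bcl2a1b lay between -0.23 and 0.20 on the log2 scale. Bax was at 72.9, 51.2, 65.6 and 54.6 CPM in irradiated tumors 1 to 4 and at 53.5, 70.1 and 80.0 CPM in control tumors 1 to 3, and the groups overlapped (log2 difference -0.23, interval -0.64 to 0.19). The groups overlapped as well for Bbc3 (log2 difference -0.15, interval -0.59 to 0.29) and Pmaip1 (-0.22, interval -0.79 to 0.35). These intervals, of 2 SE on each side, give the uncertainty for the p53-linked members on day 21 and are not strict limits. Of 15 other p53 targets tested in tumor cells, 0 were called by edgeR and 0 had an unadjusted p under 0.05, with a median log2 difference of -0.09. Bcl2a1b, at background in this gate, was at 0.970, 0.335, 0.611 and 0.802 CPM against 1.34, 1.66 and 0.963 CPM (log2 difference -0.98, adjusted p = 0.999, edgeR), and the 12 macrophage markers summed to 34.7 to 44.8 CPM in irradiated and 50.2 to 72.3 CPM in control tumor-gate cells.

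In macrophages, differences ran from -0.06 to 0.38 on the log2 scale. Bbc3 was at 28.7, 33.6, 32.3 and 34.9 CPM in irradiated tumors and at 29.7, 20.9 and 24.2 CPM in control tumors, and the groups overlapped (log2 difference 0.35, SE 0.12, adjusted p = 0.831, edgeR). Mcl1 was at 879 ± 88.4 CPM in irradiated (SD, n = 4) and 858 ± 48.6 CPM in control tumors (n = 3), with a log2 interval of -0.20 to 0.22. In endothelial cells, with 20 to 154 cells per tumor, 0 of the 8 members tested had an unadjusted p under 0.05 (edgeR and DESeq2) and the intervals were wide.

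In T/NK cells, Bcl2l11 was at 97.3, 136, 83.7 and 101 CPM in irradiated tumors and at 191, 183 and 159 CPM in control tumors. Every irradiated tumor lay below every control tumor. The log2 difference was -0.82 (SE 0.18), and the adjusted p over 7517 genes was 0.761 (edgeR). Bid was higher in every irradiated tumor, at 14.5, 19.5, 16.1 and 16.5 CPM against 12.8, 12.95 and 9.05 CPM, on 82 UMIs in all (log2 difference 0.45, SE 0.35, adjusted p = 0.952, edgeR). These are the 2 of 10 members whose groups did not overlap in this gate, where 6.15% of all genes did not (5.37% in macrophages, 2.31% in tumor cells and 3.97% in endothelial cells, with 0 members in each). Bax (log2 difference -0.43, adjusted p = 0.92, edgeR) and Bbc3 (-0.71, adjusted p = 0.92, edgeR) were lower in mean with overlapping groups. With edgeR these 3 members, Bcl2l11 included, were those at an unadjusted p under 0.05 in T/NK cells. There was 1 in macrophages (Bbc3), 1 in tumor cells (Bcl2a1b) and 0 in endothelial cells. With the DESeq2 Wald test the count was 1 in T/NK cells, 1 in macrophages, 1 in tumor cells and 0 in endothelial cells. The numbers of all genes at this unadjusted p with edgeR are given above for each gate. Bcl2 was at 803, 686, 976 and 1115 CPM against 1069, 805 and 1191 CPM, and the groups overlapped.

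The T/NK gate mixes subsets that differ in Bcl2l11. Regulatory cells made up 6.01% to 27.4% of T/NK cells in irradiated and 6.83% to 22.5% in control tumors, and CD8 cells 14.2% to 28.8% and 12.1% to 31.1%. Within CD8 cells, a part of the same T/NK sums, Bcl2l11 was at 90.1, 94.5 and 122 CPM in irradiated tumors 1, 3 and 4. It was at 289 and 130 CPM in control tumors 2 and 3, on 19 to 50 UMIs per tumor. These groups did not overlap, but 3 and 2 tumors separate easily, and the share over all genes was not computed. Within regulatory cells the Bcl2l11 groups overlapped, at 26.8, 37.9 and 18.7 CPM in irradiated tumors 2, 3 and 4 and at 41.0 and 26.4 CPM in control tumors 1 and 2, on 2 to 8 UMIs per tumor. Other members without overlap were Bcl2l1 in CD8 cells (higher in irradiated tumors) and, in regulatory cells, Bak1 (higher) and Bbc3 (lower). For Bcl2l1 the lowest irradiated value was 65.4 CPM and the highest control value 65.1 CPM. Bak1 and Bbc3 rested on 32 and 14 UMIs in all, with as few as 1 in a tumor. These groups also held 3 and 2 tumors, and the share over all genes was not computed. Macrophage markers in the T/NK gate summed to 76.6 to 212 CPM in irradiated and 137 to 270 CPM in control tumors, against 17143 CPM or more in macrophages. Their part in the result was not tested. A split of the libraries on cell number, depth, genes per cell and mitochondrial share together put irradiated 1 with control 2 and 3, and irradiated 2, 3 and 4 with control 1. Cell number and median UMIs per cell did not overlap between these sets, while genes per cell and mitochondrial share did. Within these sets the difference of mean log2(CPM + 1) of Bcl2l11 was -0.81 and -0.86, beside -0.78 over all tumors. The irradiation effect differed from that in tumor cells for 0 members at an adjusted p under 0.05 (edgeR), while 1 in macrophages, 2 in T/NK cells and 0 in endothelial cells were at an unadjusted p under 0.05. Bcl2l11 in T/NK against tumor cells gave a difference of -0.82 (interval -1.48 to -0.16, adjusted p = 1, edgeR), where 0.00592% of genes were called. Bcl2a1b in macrophages against tumor cells gave 0.91 (interval 0.40 to 1.42, adjusted p = 0.508, edgeR; 0% called), with the tumor-cell side at background.

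The rest of the family and the steps around it were described from lists of related genes. Of 10 other BCL2 family genes tested, 5 were higher and 3 were lower in macrophages than in tumor cells, where 38.9% of all genes were higher and 41.7% lower. Bok, an effector-like member, was at 16.7 ± 4.26 CPM in tumor cells and 0.353 ± 0.219 CPM in macrophages, had no UMI in any T/NK sum, and was highest in endothelial cells at 68.4 ± 18.8 CPM (SD, n = 7). Bik, a BH3-only gene, was at 35.3 ± 16.4 CPM in endothelial cells and 0.189 ± 0.0671 CPM in tumor cells (log2 difference 7.33, SE 0.29, adjusted p = 1.37e-19), with 1.89 ± 0.728 CPM in macrophages and 2.90 ± 1.05 CPM in T/NK cells. Bad did not separate tumor cells from macrophages in level (41.7 ± 6.15 and 41.1 ± 1.59 CPM) and was lower in T/NK cells (14.0 ± 6.15 CPM).

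Of 18 caspase and apoptosome genes, 10 were higher and 2 lower in macrophages than in tumor cells (38.9% and 41.7% of all genes), with a median log2 difference of 0.39, beside 2.23 for the 10 members and -0.07 over all genes. Birc2, an inhibitor-of-apoptosis gene, stood out in T/NK cells at 262 ± 24.2 CPM against 47.7 ± 4.98 CPM in tumor cells, and Birc3 at 151 ± 32.9 against 28.9 ± 7.50 CPM. Of 7 death receptor genes, 4 were higher and 2 lower in macrophages than in tumor cells (38.9% and 41.7% of all genes). Tnfrsf10b, the mouse TRAIL receptor, was lowest in macrophages (0.374 ± 0.230 CPM) and was at 11.7 ± 1.44 CPM in tumor cells, while Fas was highest in T/NK cells at 85.0 ± 16.9 CPM.

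Of 16 other p53 targets, 10 were higher and 2 lower in macrophages than in tumor cells (38.9% and 41.7% of all genes), and 10 were higher and 1 lower in endothelial cells (26.1% and 33% of all genes). Cdkn1a, the cell cycle inhibitor p21, was at 11.2 ± 2.13 CPM in tumor cells, 337 ± 134 CPM in macrophages, 61.1 ± 15.2 CPM in T/NK cells and 189 ± 101 CPM in endothelial cells (SD, n = 7). Btg2, an antiproliferative gene, followed the same order of tumor cells against macrophages (56.4 ± 45.4 and 462 ± 96.6 CPM). Eda2r went the other way, at 3.66 ± 1.17 CPM in tumor cells and 0.123 ± 0.137 CPM in macrophages, with 31.7 ± 17.8 CPM in endothelial cells and no UMI in T/NK cells. In shares of RNA, Bax, Bbc3 and Pmaip1, the p53-linked members, were each lower in tumor cells than in all 3 host gates at an adjusted p under 0.05 (edgeR). The same held for Bcl2, Bcl2l1, Mcl1 and Bcl2a1b, so it was not particular to the p53-linked members. The share of all genes lower in tumor cells than in all 3 gates was not computed. In UMIs per cell, T/NK cells exceeded tumor cells for Bax in 0 of 7 tumors and for Bbc3 in 1 of 7.

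Across the 28 sums of gate and tumor, the genes with the pattern most like Bcl2 were Arhgef1 (Pearson's r = 0.98), Rab27a (0.98) and Mindy3 (0.97). For Bcl2a1b they were Coro1a (0.98), Cotl1 (0.98) and Grb2 (0.97), for Mcl1 Osbpl8 (0.97), Ctsc (0.97) and Gm57006 (0.97), and for Pmaip1 Ptbp3 (0.96), Arid5a (0.94) and St8sia4 (0.94). Bak1 had the weakest best match (Aurkaip1, r = 0.85). Sums of 1 tumor share a library and sums of 1 gate share a cell class, so these values describe the order of the gates.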

How the data were processed

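Each of 7 tumors gave 1 droplet library of 3′ ends. The authors deposited UMI counts per gene and cell, whole numbers with no normalization, made with Cell Ranger on mm10 per the labels, which also name Seurat 4.4. The file headers and the study's methods give different Cell Ranger versions. Gene coordinates are given only for RefSeq promoter windows (GRCm38.p6).

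Cells were left out if their UMI number, gene number or share of ribosomal or mitochondrial UMIs lay over 3 median absolute deviations from the median of the library (34296 of 39537 kept). A gate needed at least 3 of its own markers, a marker sum of at least 10 (tumor) or 20 (host gates) UMIs per 10000, and under 10 for the other lists. The gate thresholds were set after the files were seen, on the distribution of marker sums. These gates also served against doublets, and no doublet caller was run. CD8 cells had a Cd3 gene and Cd8a or Cd8b1 but no Foxp3 and no NK marker, and regulatory cells had a Cd3 gene and Foxp3 but no Cd8a or Cd8b1. Subgates needed 20 cells in a tumor. NK cells (58) reached that number in no tumor and were not compared.

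UMIs were summed per tumor and gate, and the tumor was the replicate. The irradiation comparison was fitted within each gate, and gates were compared in 1 model with the tumor as a block. Tests used edgeR 4.0.16 (TMM scaling, expression filter, robust quasi-likelihood test, Benjamini-Hochberg adjustment over all genes tested) in R 4.3.3, and were tested on simulated data, where the share of false calls was above the threshold for macrophages against tumor cells and for irradiation in macrophages. DESeq2 1.42.0 was an alternative, beside another scaling, no filter, stricter gates, all deposited cells, the technical set as a term, a replicate block and each tumor left out. Intervals are the estimate ± 2 SE. Each library is a separate tumor, and p-values measure the spread between tumors of 1 cell line. Between 53496570 and 153044123 UMIs per library lie behind the values.

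Genes were named by rule: all 10 members, the other Bcl2a1 copies, for each list of related genes the 3 largest called differences of a comparison, Trp53 and Nf1, and the 3 genes most correlated with a member over the 28 sums. Bad and Fas levels outside their called comparison are given for context. The members and lists were chosen with earlier results of these data known.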

Additional observations from a re-analysis of the deposited data

Results flagged for a closer look

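In the endothelial cells of irradiated tumors, Bcl2a1b was at 4.69 CPM in irradiated 2 and between 2.38 and 2.68 CPM in the other 3, so that 1 tumor stood far from its group. Each of these values rests on 1 or 2 UMIs (1 UMI in 20 cells for irradiated 2), so that the gap follows the size of the sums. This was 1 of 40 groups of member values examined, and chance gives about 1 in 20.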

How the results depend on the processing

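The calls of irradiated against control tumors numbered 0 in each gate as reported and with each tumor left out. They came to 4 in macrophages with the DESeq2 Wald test, to 43 in T/NK and 31 in endothelial cells when every gene with at least 1 UMI was tested, and to 3 in T/NK cells with the technical set as a term. Bcl2l11 in T/NK cells was called in 1 of 14 settings (every gene with at least 1 UMI, adjusted p = 0.00931, edgeR); its log2 difference ran from -0.97 to -0.72 and its adjusted p to 0.999. Replicate numbers did not pair the tumors (correlations of deviations at most 0.0431), and the replicate block, with irradiated 4 left out, gave 0 calls in every gate. With each tumor left out, calls for a difference in irradiation effect from tumor cells ran from 0 to 2 in macrophages. They ran from 0 to 1 in T/NK cells and 0 to 1 in endothelial cells. Calls between regulatory and CD8 cells, fitted on 3 tumors, ran from 365 to 827 (365 without irradiated 3 and 428 without irradiated 4). Calls between monocyte and mature cells ran from 2845 to 3813.

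Of 60 member differences between gates, 4 turned sign in some setting, none of them called as reported. Bak1 in T/NK against tumor cells (-0.03) was 0.12 with DESeq2 size factors, 0.12 with the DESeq2 Wald test, 0.042 with stricter gates, 0.065 with no replicate block, 0.026 with library size alone and -0.13 to 0.034 with each tumor left out. Bcl2l11 in endothelial against tumor cells (0.09) was -0.024 with every deposited cell and -0.25 to 0.20 with each tumor left out. Against macrophages, endothelial Pmaip1 was 0.19 with library size alone and endothelial Bcl2 was -0.0033 with stricter gates. Among the subgates, regulatory against CD8 Pmaip1 was 0.0019 with DESeq2 size factors. With each tumor left out it ran from -0.43 to 0.60, Bax from -0.37 to 0.53, Bcl2a1b from -0.40 to 0.29, and monocyte against mature Bid from -0.17 to 0.18. Bid in T/NK against tumor cells lost its call without irradiated 2 (adjusted p = 0.0702, edgeR). Of 38 irradiation differences, 18 turned sign in some setting. The cause was not tested. Endothelial cells (20 to 154 a tumor) and subgates limit depth most.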
